A study of Drosophila melanogaster with 3 samples.

Results

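The Cpr genes of Drosophila melanogaster encode cuticle proteins with the Rebers-Riddiford consensus, a stretch that binds chitin. All 70 protein-coding genes whose symbol is Cpr followed by a digit were taken from the annotation of the dm6 genome, out of 13968 protein-coding genes. The data were ChIP-seq of Pif1A, a protein known as a binding partner of the cyclin-dependent kinase Eip63E. The animals were whole pupae of unknown age, males and females pooled, from 1 transgenic line that stably carries Pif1A with GFP at its C terminus. All 3 biological replicates belonged to this 1 group, were recovered with an antibody against GFP and shared a control, and no flies without the tag were analysed here. Whole pupae mix the epidermis, which makes cuticle, with all other tissues, so a summit could not be assigned to a cell type.

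Insect cuticle is an extracellular layer in which chitin fibres are embedded in proteins, and the Cpr genes form the largest family of those proteins. The epidermis secretes new cuticle around each molt, and pulses of the hormone ecdysone and the nuclear receptors it induces, such as Ftz-F1, time the transcription of cuticle genes through pupal life. Many cuticle genes are short, lie in tandem clusters and have a TATA box, the core promoter element found a short way before the start of many tightly regulated genes.

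Peaks were read at their summits, and each annotated transcript start counted as a TSS. The optimal list, which the authors made with the irreproducible discovery rate (IDR) procedure, held 7283 peaks, and these were the 7283 highest peaks of the pooled list. The pooled list and each replicate's list held 30000 peaks and reached down to background. From each replicate the 7283 highest peaks were therefore used beside the whole list. Peak scores are signal values from the authors, read here only within a list, and rank 1 is the highest score. The lists held no read counts, so depth was unknown.

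The 70 genes lay mostly on arm 3L (35 genes) and arm 2R (21 genes), with 5 on 2L, 5 on 3R and 4 on X. They were short, with a median length of 1093 bp against 2164 bp for all protein-coding genes and a range of 457 bp (Cpr65Ax1) to 18590 bp (Cpr73D). A single TSS was annotated for 63 of them and a pair for the other 7.

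Pif1A summits were almost missing from the starts of the Cpr genes, although within 5 kb they lay near the genes about as often as near all coding genes. In the optimal list 1 of 70 Cpr genes (1.43%) had a summit within 500 bp of a TSS, beside 14.1% of all protein-coding genes. Within 5 kb of the gene, 30 of 70 (42.9%) had an optimal summit, beside 41.2% of all protein-coding genes. That closeness depended on the reach and on weaker peaks: within 2 kb the shares were 15 of 70 (21.4%) and 28.7%, and with the 3641 highest optimal peaks they were 19 of 70 (27.1%) and 29.5%. No sample group served as a comparison, so these shares are descriptions without a test.

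The replicates gave the same picture when their 7283 highest peaks were used. At the TSS, replicate 1 had 0 Cpr genes beside 17.2% of all coding genes, replicate 2 had 2 (2.86%) beside 15.8%, and replicate 3 had 0 beside 15.4%. The mean was 0.952% ± 1.65 (SD, n = 3) for Cpr genes and 16.2% ± 0.961 (SD, n = 3) for all coding genes, and the replicates of the former stayed below those of the latter. Within 5 kb of the gene, replicate 1 had 25 Cpr genes (35.7%) beside 45.5% of all coding genes. Replicate 2 had 32 (45.7%) beside 45.7%, and replicate 3 had 30 (42.9%) beside 44.0%. The mean of 41.4% ± 5.15 (SD, n = 3) differed from that of all coding genes, 45.1% ± 0.932 (SD, n = 3), by less than the SD of the Cpr value. In all 3 replicates 24 Cpr genes had such a summit, with no like count for all coding genes.

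**Figure D1:**
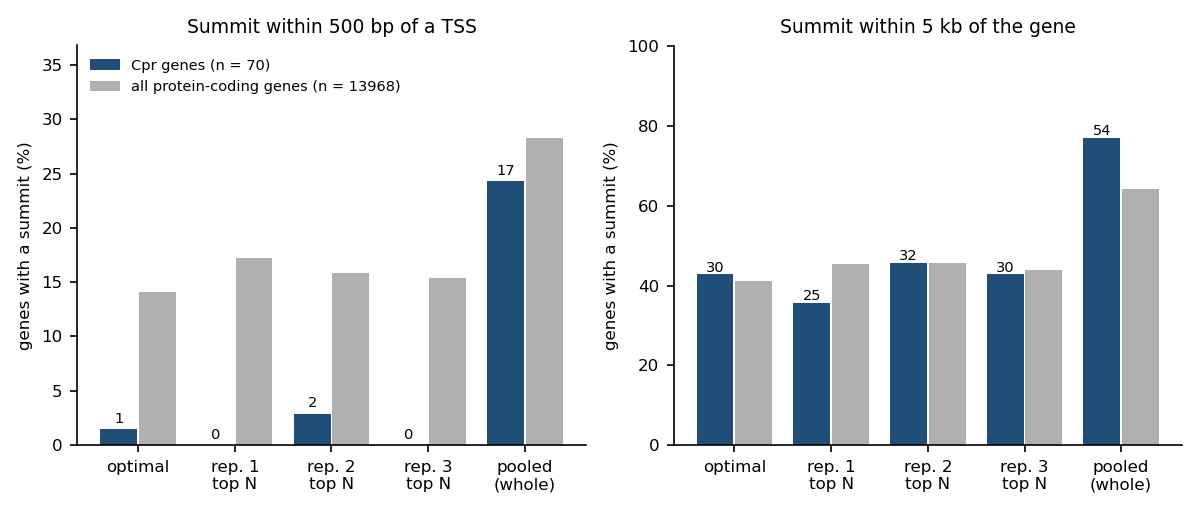
Percent of genes (vertical axis) with a summit within 500 bp of a TSS (left) or within 5 kb of the gene (right), in the optimal list, the 7283 highest peaks (top N) of each replicate, and the whole pooled list. Dark bars are Cpr genes with their number above, and grey bars are all protein-coding genes; dark bars are short on the left in every list but the pooled one, and near the grey bars on the right in the optimal list and in replicates 2 and 3.

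The distances filled in from farther out. At 200 bp or less from a TSS, 0 Cpr genes had one, where 9.18% of all coding genes had one. A distance of 501 to 1000 bp held 4 Cpr genes (5.71% beside 3.42% of all), namely Cpr62Ba, Cpr47Ed, Cpr47Ec and Cpr73D at 773, 869, 884 and 887 bp. From 1001 to 2000 bp there were 6 (8.57% beside 5.03%), and from 2001 to 5000 bp there were 16 (22.9% beside 13.2%). The share of Cpr genes with a summit at or within 5000 bp of a TSS had then reached 38.6%, beside 35.7% of all coding genes. Measured from the gene, more than 10 kb from any optimal summit lay 30 of 70 Cpr genes (42.9%), the same share as of all coding genes (42.9%). More than 20 kb away lay 8 (11.4%), beside 24.2%, and the farthest was Cpr92F at 74865 bp. The median distance from the gene to the nearest optimal summit was 6876 bp for Cpr genes and 7623 bp for all coding genes. With the peaks that remain when replicate 2 or replicate 3 is left out, it was 11830 or 10639 bp, beside 10506 or 10683 bp for all coding genes. Without replicate 1 it was 7781 bp, beside 10482 bp. Cpr genes were thus farther than all coding genes without replicate 2, but nearer without replicate 1. They were also farther with the 3641 highest optimal peaks alone, at 15398 bp for Cpr genes and 12914 bp for all coding genes.

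**Figure D2:**
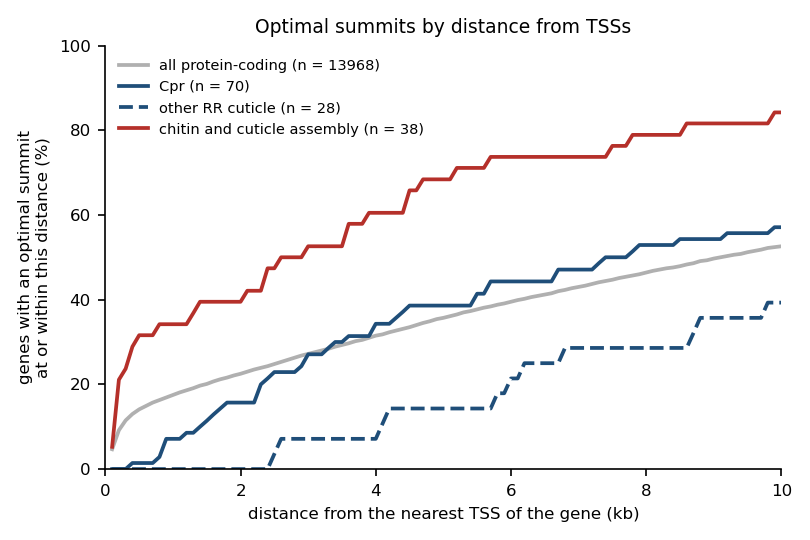
Percent of genes with an optimal summit at or within a distance of a TSS (horizontal axis, kb), for Cpr genes, the other Rebers-Riddiford (RR) genes, chitin and cuticle assembly genes and all protein-coding genes. The Cpr line starts near 0, stands at 7.14% at 1 kb against 17.5% for all coding genes, and has crossed it by 5 kb, at 38.6% against 35.7%.

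Cpr72Eb was the gene with an optimal summit at its TSS, and that summit was the weaker of a close pair. The gene lies at chr3L:16364899-16365707 on the plus strand, between Cpr72Ea and Cpr72Ec. Its peak at chr3L:16364325-16364748 had a summit 362 bp before the TSS, a score of 89.3 and rank 7125, close to the end of the optimal list. A peak that overlaps it, at chr3L:16364221-16364518, had its summit 571 bp before the TSS, outside the 500 bp window, with a score of 296 and rank 1383. Both lie between genes. In replicate 1 the summit there stood 526 bp before the TSS (rank 1444, score 91.0), in replicate 2 at 453 bp (rank 1684, score 94.5) and in replicate 3 at 570 bp (rank 1318, score 112). Every replicate thus had 1 strong summit there, but only that of replicate 2 fell inside the 500 bp window, and it was the single one within 100 bp of the weaker optimal summit. When optimal peaks were required to have a matching summit in any 2 of the replicates, leaving out the third, 0 Cpr genes had a TSS summit. Of all coding genes, 9.84% to 10.5% then had one. Replicate 3 also had a weak summit 101 bp after the TSS, at rank 20182.

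A further strong summit lay before Cpr72Ea, the first gene of this group. Its peak at chr3L:16361298-16361534 had a summit 1164 bp before the Cpr72Ea TSS, a score of 318 and rank 1249. It ranked 792 in replicate 1, 2207 in replicate 2 and 1337 in replicate 3. The 101 bases centred on these 3 summits are shown because they hold the only optimal peak at a Cpr TSS and its neighbours, with capitals for TATAAA and for the initiator core TCAGT, each on either strand (the first window holds overlapping matches at its TATA run). No capitals mean that none of the motifs searched was found.
Stronger summit (dm6, chr3L:16364278-16364378, plus strand): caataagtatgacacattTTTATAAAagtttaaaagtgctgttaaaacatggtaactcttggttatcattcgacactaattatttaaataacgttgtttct
Weaker summit (dm6, chr3L:16364487-16364587, plus strand): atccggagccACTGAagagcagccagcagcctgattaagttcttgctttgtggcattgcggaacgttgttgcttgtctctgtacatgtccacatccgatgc
Summit before Cpr72Ea (dm6, chr3L:16361389-16361489, plus strand): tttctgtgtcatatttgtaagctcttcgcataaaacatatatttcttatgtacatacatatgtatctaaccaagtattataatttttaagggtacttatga

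A TATA run was more common before Cpr genes than before all coding genes. A TATAA run 40 to 16 bp before the TSS, searched on the strand of the gene, was found in 39 of 70 Cpr genes (55.7%), in 75.0% of the other Rebers-Riddiford genes and in 10.8% of all protein-coding genes. In the longer window from 250 bp before to 50 bp after the TSS, TATAAA on either strand was present in 49 of 70 Cpr genes and 45.8% of all coding genes. The 100 bases before 6 Cpr genes are shown, with capitals for TATAAA and for the initiator core; Cpr72Ea and Cpr72Eb border the strong summits above, Cpr64Ad lies in a cluster with no optimal or pooled summit, Cpr65Ax1 and Cpr65Ax2 are near-identical copies, and Cpr12A lies outside the clusters.
Cpr72Ea start (dm6, chr3L:16362503-16362602, plus strand): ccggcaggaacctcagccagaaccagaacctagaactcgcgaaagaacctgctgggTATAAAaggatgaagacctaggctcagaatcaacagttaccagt
Cpr72Eb start (dm6, chr3L:16364799-16364898, plus strand): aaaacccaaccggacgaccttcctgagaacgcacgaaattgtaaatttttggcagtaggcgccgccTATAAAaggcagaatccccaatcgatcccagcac
Cpr64Ad start (dm6, chr3L:4215279-4215378, plus strand): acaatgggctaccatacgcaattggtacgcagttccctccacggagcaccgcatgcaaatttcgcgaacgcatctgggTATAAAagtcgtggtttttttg
Cpr65Ax1 start (dm6, chr3L:6147988-6148087, minus strand): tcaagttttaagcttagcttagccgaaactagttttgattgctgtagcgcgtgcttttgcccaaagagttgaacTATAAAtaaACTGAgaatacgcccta
Cpr65Ax2 start (dm6, chr3L:6150858-6150957, minus strand): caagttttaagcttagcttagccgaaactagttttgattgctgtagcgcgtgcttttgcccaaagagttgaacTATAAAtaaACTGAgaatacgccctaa
Cpr12A start (dm6, chrX:13543543-13543642, plus strand): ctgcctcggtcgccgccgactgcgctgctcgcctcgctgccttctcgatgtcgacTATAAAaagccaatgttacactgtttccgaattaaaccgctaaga

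Motifs common at promoters of widely expressed genes were rarer in the same window. The DREF site TATCGATA occurred in 1.43% of Cpr genes and 9.36% of all coding genes. The M1BP site GGTCACAC occurred in 0 of 70 Cpr genes and in 7.69% of all coding genes, and CGATA, the core of the BEAF-32 site, in 34.3% and 47.3%. GAGAG, the core of the GAGA factor site, occurred in 32.9% and 29.7%. AAGGTCA, the site of Ftz-F1, occurred in 0 of 70 Cpr genes and 2.11% of all coding genes. All were searched on both strands; TATCGATA contains CGATA. A match is a description of letters and not a site.

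Cpr genes also stood apart from other genes' starts. Another gene's TSS lay within 500 bp for 4 of 70 (5.71%), beside 34.1% of all coding genes, and within 1000 bp for 11 (15.7%), beside 47.7%. Other coding genes that share 1 of these traits had TSS summits at shares between those of the Cpr genes and of all coding genes. Without another TSS within 500 bp, 1117 of 9138 other coding genes (12.2%) had one in the optimal list, close to the share of all. Of other coding genes with a TATAA run near the TSS, 105 of 1474 (7.12%) carried a TSS summit of the optimal list. Cpr genes without such a run lacked TSS summits too, with 0 of 31, beside 1859 of 12424 other coding genes without it. Of other coding genes no longer than 2 kb, 6.74% of 6482 had one, and of those with a single TSS 8.44% of 10206. With all 4 features (TATAA, a single TSS, 2 kb or shorter and no other TSS within 500 bp), 17 of 740 other coding genes (2.30%) had one, beside 1 of 30 Cpr genes (3.33%). That 1 gene was Cpr72Eb, the only Cpr gene with an optimal TSS summit. Within 5 kb, 13 of those 30 Cpr genes (43.3%) had an optimal summit, beside 204 of the 740 (27.6%). When a TATAA run was not required, the last 3 features were shared by 49 Cpr genes and 4074 other coding genes. Of these, 1 Cpr gene (2.04%) and 152 other coding genes (3.73%) had a TSS summit. These groupings were made after the values were seen and were not tested.

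**Figure D3:**
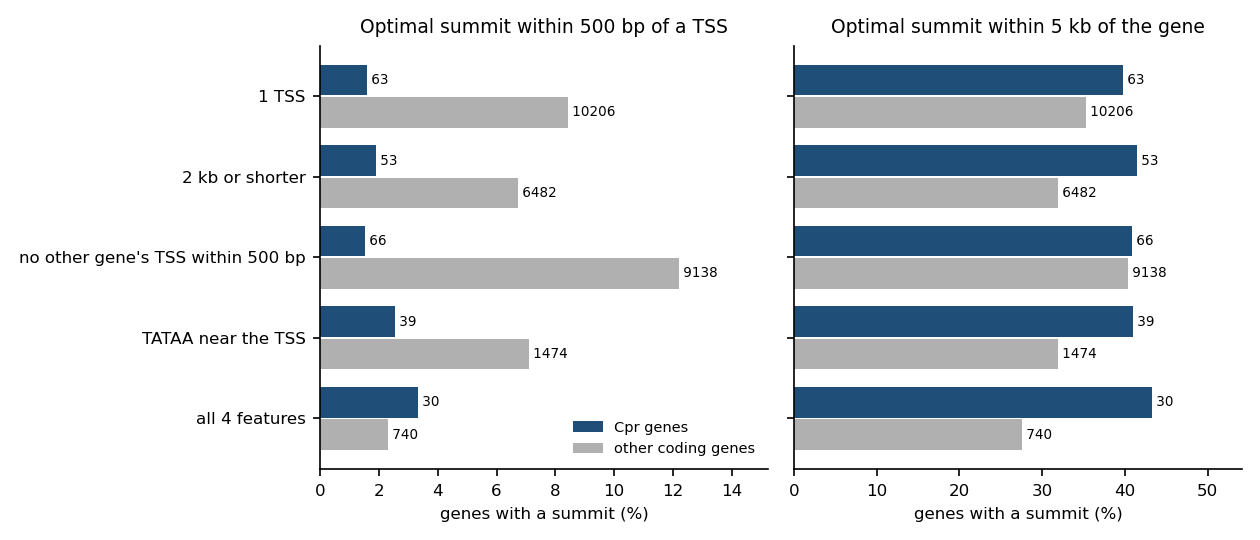
Percent of genes (horizontal axis) with optimal summits at most 500 bp from a TSS (left) or within 5 kb of the gene (right), among Cpr genes (dark) and other coding genes (grey) that have each feature; the number at each bar is the number of genes. On the left the bars of genes with all 4 features are 3.33% and 2.30%, and on the right 43.3% and 27.6%.

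Within 500 bp, pooled summits were somewhat less common at Cpr starts than at all coding starts, and those at Cpr starts gathered at the bottom of the pooled list. In the whole pooled list 17 of 70 Cpr genes (24.3%) had a summit within 500 bp of a TSS, beside 28.3% of all coding genes, and 54 (77.1%) had one within 5 kb of the gene, beside 64.3%. By the highest peak at each gene, 1 Cpr gene (1.43%) fell in ranks 1 to 7283, 3 (4.29%) in ranks 7284 to 15000, 3 (4.29%) in ranks 15001 to 22500 and 10 (14.3%) in ranks 22501 to 30000. For all coding genes the shares ran the other way, at 14.1%, 10.7%, 7.32% and 5.71%. The 17 genes held 21 pooled summits, of median rank 26931, while the nearest pooled summits at all coding TSSs had a median rank of 9955. The former median takes every summit at a gene and the latter only the nearest ones, so they are not like for like.

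**Figure D4:**
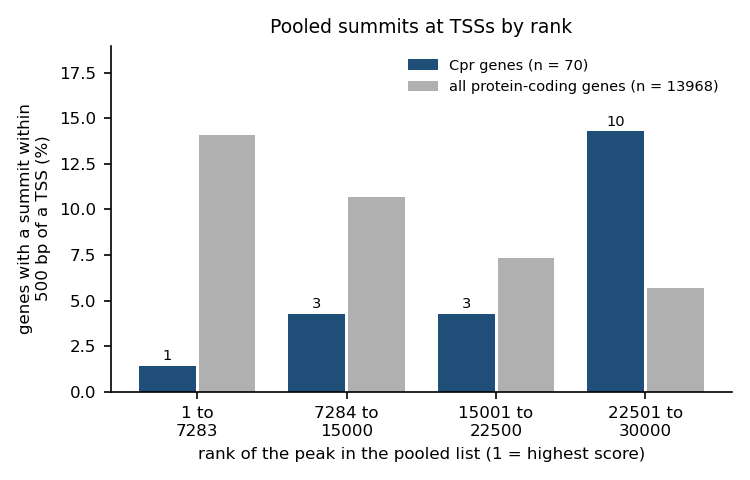
Percent of genes (vertical axis) whose highest pooled summit within 500 bp of a TSS falls in each range of ranks, for Cpr genes (dark, number above) and all protein-coding genes (grey). The grey bars fall from 14.1% to 5.71% from the highest to the lowest ranks, and the dark bars rise from 1.43% to 14.3%.

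After Cpr72Eb, the highest of the pooled summits at a Cpr start was that of Cpr51A, 71 bp after the TSS at rank 9362 (score 69.5). A second one at this gene lay 312 bp after the TSS at rank 10143. In the whole lists, Cpr51A had a summit within 500 bp of its TSS in every replicate, with best ranks of 12759, 8038 and 9765 in replicates 1, 2 and 3, and it was the single Cpr gene of which this holds. Cpr97Eb followed at rank 10355, 359 bp before the TSS, and Cpr50Ca at rank 10803, 270 bp before the TSS. The next ranks, 17285 to 22480, belonged to Cpr97Ea, Cpr35B and Cpr12A. The 10 genes in the lowest range were Cpr65Au, Cpr76Bc, Cpr62Ba, Cpr47Ed, Cpr73D, Cpr100A, Cpr49Ah, Cpr92F, Cpr65Ea and Cpr66Cb. The deposited −log10 q-values of their highest pooled summits ran only from 0.311 to 0.520.

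These weak summits were seldom shared between replicates. Such sharing was not counted for other genes or for pooled peaks of similar rank, so it cannot be called a trait of Cpr starts. Of the highest pooled summit at each of the 17 genes, 3 had a summit within 100 bp in the lists of 2 replicates (Cpr51A, Cpr50Ca and Cpr12A), 10 in the list of 1 replicate, and 4 in the list of 0 (Cpr49Ah, Cpr62Ba, Cpr73D and Cpr92F). Over the whole lists, 18 Cpr genes (25.7%) had a TSS summit in replicate 1 beside 33.5% of all coding genes, 8 (11.4%) in replicate 2 beside 31.9%, and 13 (18.6%) in replicate 3 beside 31.4%. The mean was 18.6% ± 7.14 (SD, n = 3) for Cpr genes and 32.3% ± 1.12 (SD, n = 3) for all coding genes. Together 28 Cpr genes had a TSS summit in at least 1 replicate, and 1 had it in all 3, with no like count for all coding genes. The second Cpr gene among the highest peaks of replicate 2, beside Cpr72Eb, was Cpr73D, with a summit at rank 4394 that lay 209 bp before its TSS, in an intron of Ogdh, the gene of a subunit of the oxoglutarate dehydrogenase complex, and also within 500 bp of an Ogdh TSS.

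The optimal peaks within 5 kb of Cpr genes lay in introns and between genes. There were 25 such peaks, of which 14 had 1 Cpr gene within 5 kb and the others 2 to 4. Of these, 16 had a summit between genes and 9 in an intron, 5 of them in an intron of a Cpr gene, and 0 were in coding exons or UTRs. A TSS of any gene lay within 500 bp of 7 of the 25. Neither these places nor the closeness to a TSS was counted for the whole optimal list, so they cannot be called particular to these peaks. The nearest TSS was that of a Cpr gene for 13 and of another gene for 12. Scores ran from 89.3 to 1370 with a median of 173, beside 153 for the whole optimal list. A summit within 100 bp was present among the highest peaks of all 3 replicates for 15 of the 25, beside 56.1% of all optimal peaks. Of the 30 Cpr genes, the nearest summit was inside 4, upstream of 13 and downstream of 13. The 4 with a summit inside were 5.71% of all Cpr genes, beside 13.7% of all coding genes. Among genes over 2 kb long these shares were 23.5% and 24.2%.

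The highest of these peaks, at ranks 33 and 198, sat at other genes, and so did some lower ones. The next in rank, at 1249 and 1383, had the TSSs of Cpr72Ea and Cpr72Eb nearest to them. The peak 3405 bp past Cpr78Cc, at chr3L:21304367-21304785 (score 1370, rank 33), had its summit 82 bp from a TSS of CG11309 and within 500 bp of that of CG7632, and it ranked 33, 30 and 43 in replicates 1, 2 and 3. The peak 1492 bp past Cpr31A, at chr2L:10057276-10057589 (score 744, rank 198), lay in an intron of Pen, the gene of an importin alpha, 527 bp from its TSS, and ranked 252, 228 and 166 in the replicates. Beside Cpr66Cb, 1 peak lay 40 bp from the TSS of Pex2, which encodes a peroxisome assembly factor (rank 6554), and another 123 bp from that of CG7083 and within 500 bp of Prim1, the gene of a DNA primase subunit (rank 2328). The peak 4747 bp past Cpr67B (rank 2965) lay 89 bp from the TSS of CG4022 and within 500 bp of that of Cpsf5, the gene of an RNA cleavage factor. The peak shared by Cpr65Ay and Cpr65Ax2 (rank 1399) lay 116 bp from the TSS of a long noncoding RNA, CR45421.

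Other peaks lay in a Cpr gene or in the space next to one. Cpr62Ba held a peak in its intron at chr3L:1829625-1829827 (score 245, rank 1828), 773 bp from a TSS, which ranked 3156, 1628 and 2037 in replicates 1, 2 and 3. Cpr97Ea held one at chr3R:27084776-27084881 (score 188, rank 2754), 1781 bp from a TSS, which ranked 5340, 2746 and 2547. Cpr73D, the longest Cpr gene, held a pair in its introns, at chr3L:16941306-16941729 (score 173, rank 3086) and chr3L:16956590-16957013 (score 119, rank 5003). The former ranked 5122, 3445 and 2710 in the replicates, whereas the latter, also inside an Ogdh intron, had a summit within 100 bp in replicate 1 alone (rank 5007). Cpr51A held one at rank 1993, 243 bp from a TSS of CG30197, and a further one lay 3040 bp before its TSS (rank 1587). Cpr12A had one 2229 bp before its TSS at chrX:13541382-13541490 (score 149, rank 3765), which ranked 4293, 3086 and 6368. Cpr100A had one 2922 bp before its TSS (rank 4889), and the peaks beside Cpr57A, Cpr49Ac and Cpr97Eb, at ranks 6993, 5398 and 4772, lay between genes with the TSSs of CG30148, CG8501 and CG14258 nearer to them, at 1123, 1182 and 707 bp.

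The 101 bases centred on 4 of these summits are shown as examples. Their peaks were among the highest of all 3 replicates and lay over 2 kb from other genes' starts. Some peaks not shown also met both conditions, such as those before Cpr51A (rank 1587) and Cpr100A (rank 4889). Capitals mark TATAAA on either strand.
Cpr62Ba intron (dm6, chr3L:1829665-1829765, plus strand): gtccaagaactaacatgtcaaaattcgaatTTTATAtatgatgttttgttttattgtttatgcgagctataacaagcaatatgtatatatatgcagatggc
Cpr97Ea intron (dm6, chr3R:27084788-27084888, plus strand): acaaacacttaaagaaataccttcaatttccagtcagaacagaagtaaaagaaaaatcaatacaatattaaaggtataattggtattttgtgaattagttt
Cpr73D intron (dm6, chr3L:16941468-16941568, plus strand): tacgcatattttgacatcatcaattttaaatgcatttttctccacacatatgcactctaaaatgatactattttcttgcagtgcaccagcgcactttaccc
Cpr12A upstream (dm6, chrX:13541364-13541464, plus strand): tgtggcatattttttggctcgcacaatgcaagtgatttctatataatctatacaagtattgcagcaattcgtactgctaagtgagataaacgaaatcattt

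Within 50 bp of the 25 summits, some of the motifs searched were more frequent than at all optimal summits and others less. The counts are small and were not tested. GAGAG was found in 0 of 25 windows, beside 13.3% of all optimal summits. CGATA was found in 5 of 25, beside 802 of all 7283, and TATAAA in 3 of 25, beside 1453 of 7283. AAGGTCA was found at 1 of 25 (4.00%), beside 0.741%, at the summit past Cpr67B.

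Most Cpr genes lie in clusters, defined here as at least 3 Cpr genes with gaps of at most 20 kb. There were 10 clusters with 45 Cpr genes over 169 kb, 2 on arm 2R and 8 on arm 3L, and 25 Cpr genes lay outside them. The clusters held 8 optimal summits, or 47.2 per Mb, beside 54.4 per Mb over the chromosome arms without Y. Of these 8, a match in the other 2 replicates was found for 5 when any 1 replicate was left out. Among the 7283 highest peaks, replicates 1, 2 and 3 had 35.4, 41.3 and 35.4 per Mb in the clusters, with a mean of 37.4 ± 3.41 (SD, n = 3), beside 54.4 ± 0.0474 over the arms. All 3 replicates lay below the value of the arms. The SD over the arms is small by construction, because the same number of peaks was taken from each replicate. The clusters span only 169 kb, so their densities rest on few summits, and the difference was not tested. In the whole pooled list the order was the opposite, with 46 summits in the clusters, or 271 per Mb, beside 224 per Mb. Of the Cpr genes in clusters, 1 of 45 had an optimal TSS summit and 20 (44.4%) had one within 5 kb; outside clusters these were 0 of 25 and 10 of 25.

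**Figure D5:**
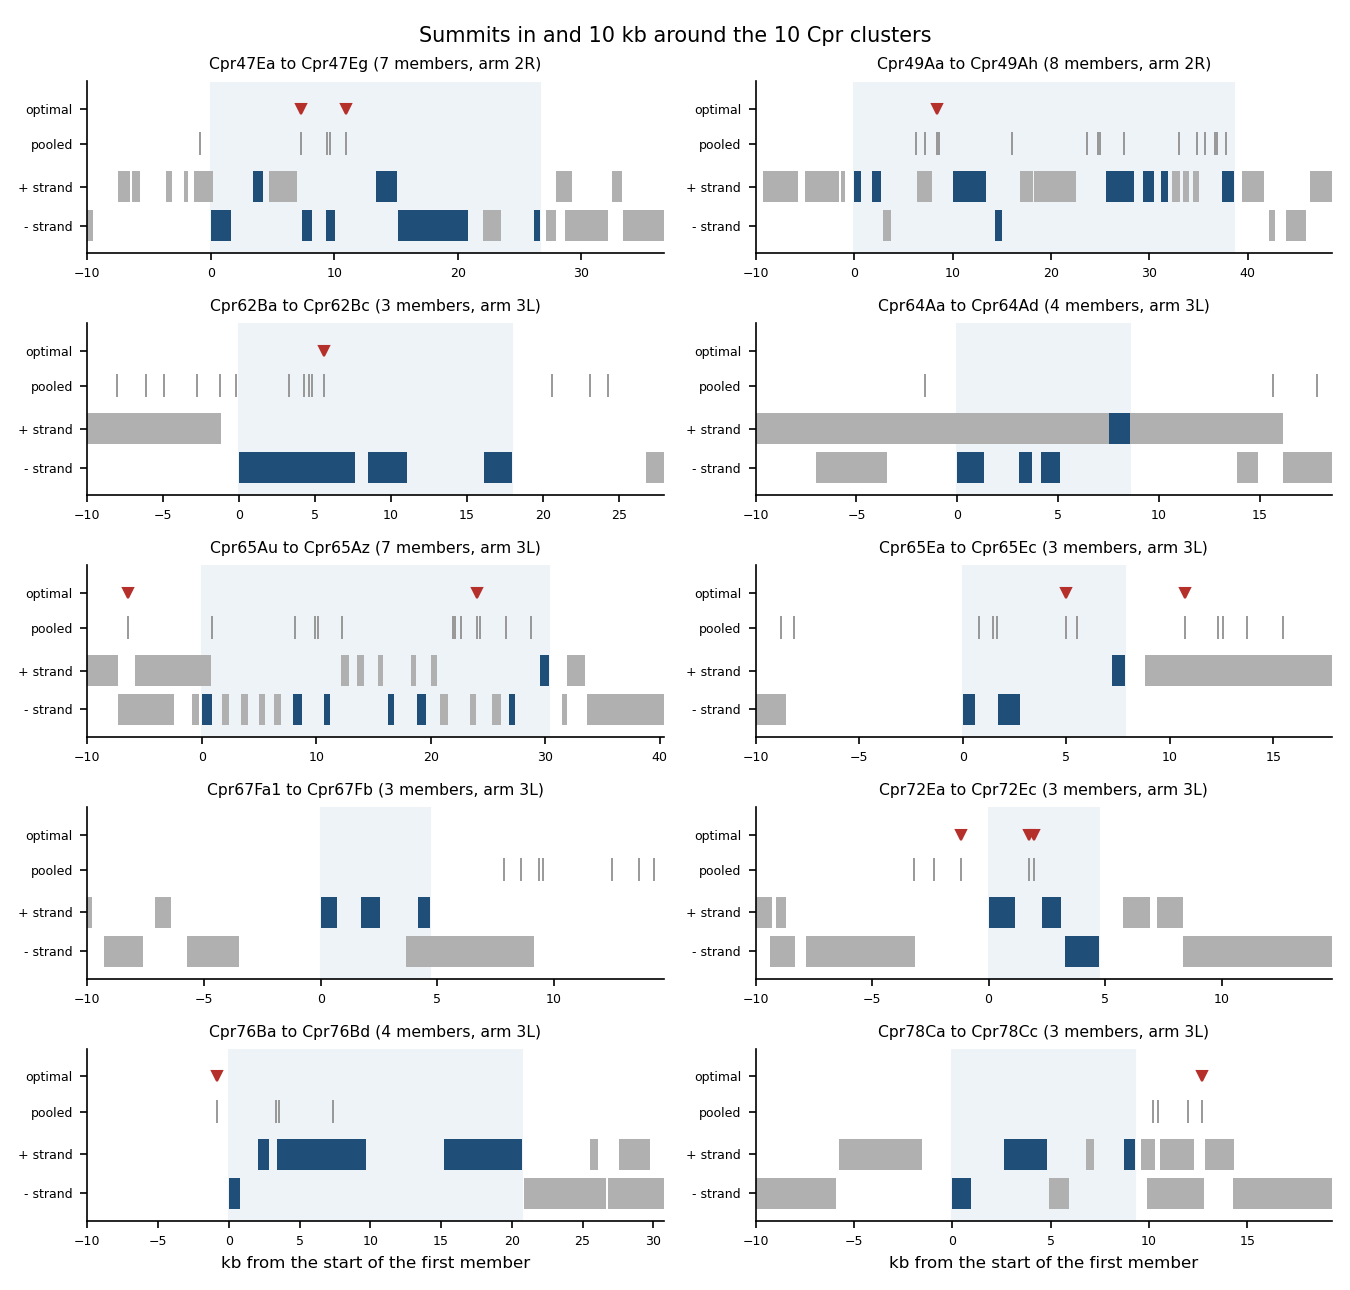
Maps of the 10 clusters with 10 kb on either side (horizontal axis, kb from the start of the first Cpr gene). Dark boxes are Cpr genes and grey boxes other genes, plus strand above and minus strand below; red triangles are optimal summits and grey ticks pooled summits, and shading marks the cluster. Of the 10 shaded spans, 4 hold no triangle and 3 hold no tick.

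A group of 4 clusters held no optimal summit. Cpr64Aa to Cpr64Ad (4 genes, 8.58 kb, chr3L:4207838-4216414) lay inside the span of CG43367, had 0 pooled summits as well, and its flanking optimal summits stood 37542 bp to the left, 108 bp from the TSS of Ero1L, and 11951 bp to the right, in an intron of ImpL2 (score 857, rank 139). Cpr67Fa1 to Cpr67Fb (3 genes, 4.70 kb, chr3L:10889990-10894693) also had 0 pooled summits, with flanking summits 21744 bp away in an intron of tna and 18713 bp away between genes. Cpr78Ca to Cpr78Cc (3 genes, 9.31 kb, chr3L:21291860-21301171) had 0 pooled summits, and its flanks were the peak at CG11309 and one 11709 bp away at AcCoAS, the gene of acetyl-CoA synthetase. Cpr76Ba to Cpr76Bd (4 genes, 20.7 kb, chr3L:19517552-19538289) had 3 pooled summits, and an optimal summit 831 bp outside it, past the end of Cpr76Ba (rank 4548), put Cpr76Ba, Cpr76Bb and Cpr76Bc within 5 kb.

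The other 6 clusters held 1 or 2 optimal summits each. Cpr72Ea to Cpr72Ec, over 4.74 kb, had 2, both before Cpr72Eb. Cpr47Ea to Cpr47Eg (7 genes, 26.7 kb on 2R) had 2, at ranks 2767 and 5602, and 5 of its genes (Cpr47Eb, Cpr47Ec, Cpr47Ed, Cpr47Ee and Cpr47Ef) lay within 5 kb of them. Cpr49Aa to Cpr49Ah (8 genes, 38.5 kb on 2R) had 1, next to Cpr49Ac, but 15 pooled summits, and its flanking summits were far off, at 38819 bp near Den1 and at 91464 bp in fdl, the widest gap of any cluster. Cpr62Ba to Cpr62Bc (3 genes, 18.0 kb) had the Cpr62Ba intron peak, also within 5 kb of Cpr62Bb. Cpr65Ea to Cpr65Ec (3 genes, 7.84 kb) had 1 at rank 4003, within 5 kb of all 3 genes, and a flanking summit 2925 bp away in form3. That of rank 4003 was at 10770, 2948 and 4361 in replicates 1, 2 and 3.

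Cpr65Au to Cpr65Az (7 genes, 30.3 kb) shares its span with 13 other genes, among them the Lcp65A larval and Acp65Aa adult cuticle genes, and had 1 optimal summit and 12 pooled ones. Its flanking summits lay 6420 bp away in a coding exon of l(3)mbn and 57209 bp away near LanA, which encodes a laminin. The coding sequences of Cpr65Ax1 and Cpr65Ax2 in it were identical (306 bp), and of the 100 bases printed before each gene they share a run of 99. Those of Cpr67Fa1 and Cpr67Fa2 were 96.5% identical (402 bp). The sources used here do not give how reads with several placements were treated, so a lack of summits at these 4 genes is uncertain. Over all 10 clusters, 10 of the 20 flanking summits had a TSS of some gene within 500 bp, a share not counted for the whole optimal list.

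Other genes of the cuticle differed widely in the same lists. Of all coding genes, 14.1% had an optimal TSS summit and 41.2% had one within 5 kb. The groups of genes compared here were chosen with earlier results of these data known. The 28 other Rebers-Riddiford genes, which include the Lcp and Ccp84A genes, had 0 optimal TSS summits and 5 (17.9%) within 5 kb. The 25 Tweedle genes, a further cuticle protein family, had 0 and 2 (8.00%). The 9 genes of the chitin-binding Gasp and obst group had 0 and 5 (55.6%), and the 9 tanning genes, whose enzymes harden and pigment cuticle, had 0 and 2 (22.2%). Chitin and cuticle assembly genes stood higher, with 12 of 38 (31.6%) at a TSS and 30 (78.9%) within 5 kb. The highest were the chitinase family gene Cht7 (151 bp from a TSS, score 410), tyn, a gene of a zona pellucida domain protein (189 bp, score 266), Cht11 (140 bp, score 244) and sha, needed for epidermal hairs (246 bp, score 225).

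Known regulators of cuticle genes, a list chosen in the same way, were at the other end. A TSS summit was present in 13 of 17 (76.5%, beside 14.1% of all coding genes). All 17 had one within 5 kb (beside 41.2%). The highest were the nuclear receptor gene Eip75B (28 bp from a TSS, score 673), the ecdysone-induced factor gene Eip93F (76 bp, score 492), crc, the fly ATF4 gene (244 bp, score 243), and grh, which encodes the epidermal factor Grainyhead (169 bp, score 225). The median gene length was 41689 bp for the regulators, 6018 bp for the assembly genes, 5603 bp for the tanning genes, 1293 bp for the Gasp and obst group, 1093 bp for Cpr genes, 1088 bp for the Tweedle genes and 749 bp for the other Rebers-Riddiford genes. The lists with the most TSS summits had the longest genes. The 9 tanning genes had 0 at nearly the length of the assembly genes. Tweedle genes, about as long as Cpr genes, had fewer summits within 5 kb. Of all coding genes over 2 kb long, 20.5% had an optimal TSS summit and 49.4% had one within 5 kb. For coding genes of 2 kb or shorter these were 6.70% and 32.0%. Several lists are small, and the part of gene length in the shares was not tested across the lists.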

How the data were processed

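Pif1A-GFP ChIP-seq peaks of 3 biological replicates (1 group), the pooled replicates and the IDR optimal set were taken from the deposited narrowPeak lists on dm6. Per the deposited file descriptions, IDR took the replicate and pooled lists, which reach into background, as its input, and 1 control served all replicates. As peak score the authors deposited a signal value; the −log10 q-value, also deposited, was read but not used for ranking, since its highest value of 3.86 is shared by many peaks. The aligner, peak caller, IDR threshold and read filters are unstated (not given in the sources used here). Lists on dm3 were not used.

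A summit is the peak start plus the deposited offset. Positions are 1-based on dm6 (BDGP Release 6), genes are from Ensembl release 115, and sequences are from the RefSeq FASTA of the same assembly. A gene had a summit at a TSS within 500 bp, or near it within 5 kb of the gene (0 bp inside it). Summits in different lists were matched within 100 bp. Motif windows were set at the 5′ end of the gene record. Gene copies were sought at 90% identity of coding sequences of similar length. Counts used Python 3.11.15, numpy 2.4.6, pandas 2.3.3 and Biopython 1.88, and the steps were tested on simulated peaks. Genes are not replicates and all samples form 1 group, so no test was run. The named genes are those with a summit counted in the text, the ends of clusters, the genes nearest to such summits, up to 4 genes with the highest peaks of each list, and genes whose sequence is printed. The members and lists were chosen with earlier results of these data known. Of the list patterns, 2 matched no gene. The alternatives changed windows, peak numbers, peak edges, cluster gaps, annotation and replicates.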

Additional observations from a re-analysis of the deposited data

How the results depend on the processing

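No paired analysis was possible because all replicates belong to 1 group and the results come from no test. The 44 alternatives left 23 values within the limits set for a change. With a 200 bp window, the 1 Cpr gene with an optimal TSS summit became 0, beside 9.18% of all coding genes. It was also 0 with the 3641 highest optimal peaks (beside 8.35%) and with peaks found in all 3 replicates (beside 8.99%). A 1000 bp window gave 5 (7.14% beside 17.5%). Leaving out replicate 1, 2 or 3 gave 0 each time, beside 9.84%, 10.5% and 10.1%. The 30 genes with an optimal summit within 5 kb became 15 within 2 kb (21.4%, beside 28.7% of all coding genes) and 19 with the 3641 highest (27.1% beside 29.5%). Cpr genes thus went from slightly above to below all coding genes. Without replicate 1, 2 or 3 the counts were 29 (41.4% beside 34.1%), 22 (31.4% beside 34.1%) and 24 (34.3% beside 33.5%). The 17 genes with a pooled TSS summit became 7 at 200 bp and 4 among the 15000 highest peaks. The mean replicate share of 0.952% became 5.71% with 15000 peaks (beside 24.4% of all coding genes), 18.6% with whole lists (beside 32.3%) and 6.67% at 1000 bp (beside 19.7%). It was 0 to 1.43% without a replicate, beside 15.6% to 16.5%. The median distance of 6876 bp became 15398 bp with the 3641 highest, beside 12914 bp for all coding genes and so from nearer to farther. Without replicate 1, 2 or 3 it was 7781, 11830 or 10639 bp, beside 10482, 10506 or 10683 bp for all coding genes. The 8 optimal summits in clusters became 46 in the pooled list, and 5 without any 1 replicate. Leaving out a replicate means keeping the peaks matched in the other 2, which are 4620 to 4877 of the 7283, so fewer peaks are counted by construction; the cause of the other changes was not tested. Depth is unknown, so weak summits could not be told from background.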
